A study of Mus musculus with 3 samples.

Results

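The gamma and delta T cell receptor constant genes Trdc, Tcrg-C1, Tcrg-C2 and Tcrg-C4 and the transcription factor genes Sox13 and Zbtb16 were followed through 3 RNA-seq libraries of regulatory T cells (Tregs). They were chosen by gene name, as genes that mark gamma-delta and innate-like T cells, and are 6 of the 55536 genes in the deposited gene tables, each matched to 1 gene. The 3 libraries, of polyadenylated RNA, form 1 group: primary Tregs labelled as inflammation-experienced, of the strain Foxp3CreERT2 x Rosa26YFP, sex male and age 6 months, where the number of mice pooled is not stated. In this strain Foxp3 directs a tamoxifen-dependent Cre recombinase, and a YFP reporter sits at Rosa26. The labels give neither a tamoxifen schedule nor the way inflammation was raised. The libraries are technical replicates 1, 2 and 3 of biological replicate 1, so there was no second group to compare with, and a difference between libraries may be technical and says nothing of other mice.

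Most T cells carry a receptor of an alpha and a beta chain, and a smaller lineage carries a gamma and a delta chain instead. Each chain joins a variable (V) and a joining (J) segment to a constant (C) gene, and beta and delta chains also take a D segment. The mouse gamma locus is a row of 4 clusters, each with its own V, J and C genes, while the delta genes lie inside the alpha locus. Sox13 encodes an HMG-box factor of the SoxD group that marks gamma-delta T cells making IL-17. Zbtb16 encodes PLZF, the BTB zinc finger factor that drives the innate-like programme of NKT and MAIT cells and is also found in some gamma-delta T cells. Tregs are alpha-beta CD4 T cells that depend on Foxp3.

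The 3 gamma constant genes differ in how far their reads can be told apart, so their sequences come before their values. Tcrg-C1 (ENSMUSG00000076749.2) lies at chr13:19214103-19217024 on the plus strand, Tcrg-C2 (ENSMUSG00000076752.2) at chr13:19304649-19307551 on the minus strand, and Tcrg-C4 (ENSMUSG00000076757.9) at chr13:19344558-19352756 on the plus strand (GRCm38/mm10, GENCODE M21).

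A clear difference between Tcrg-C1 and Tcrg-C2 is in exon 2, which encodes the stretch that connects the constant domain to the membrane. It is shown here 5′ to 3′ on the strand of the gene, from the GENCODE M21 transcripts, in lower case with no base marked. It is 45 bases long in Tcrg-C1 and 30 in Tcrg-C2, and the 30 bases of Tcrg-C2 are the first 5 and the last 25 of Tcrg-C1. The other 15 bases are held by exon 2 of Tcrg-C1 alone of the pair.
Tcrg-C1 exon 2, chr13:19215864-19215908: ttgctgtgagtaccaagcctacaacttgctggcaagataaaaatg
Tcrg-C2 exon 2, chr13:19305769-19305798: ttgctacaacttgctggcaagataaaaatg
Tcrg-C4 has a 54-base exon 2 and a further 45-base exon 3 at that place. In the last coding piece, of 140 bases, Tcrg-C2 differed from Tcrg-C1 at 4 bases and Tcrg-C4 differed from Tcrg-C1 at 44.

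Over whole transcripts, 299 of the 875 windows of 50 bases in Tcrg-C1 (34.2%) were also present in another annotated gene, 157 of them in Tcrg-C2 and 194 in Tcrg-C3, the constant gene of the remaining cluster. For Tcrg-C2 it was 220 of 865 windows (25.4%), while Tcrg-C4 had none in 936. The window length follows the gene tables, in which effective length was 49 bases shorter than length in almost every gene. With windows of 31 bases the shares were 51.0% for Tcrg-C1 and 45.9% for Tcrg-C2, and 0 for Tcrg-C4. The deposited posterior SD, a measure of how uncertain the assignment of reads to a gene was, moved with this: it was 2.70, 2.71 and 2.28 reads for Tcrg-C1 and 2.08, 2.56 and 2.08 for Tcrg-C2 in libraries 1, 2 and 3, and 0 in all 3 for Tcrg-C4. Reads of Tcrg-C1 and Tcrg-C2 are therefore given apart and summed.

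**Figure D1:**
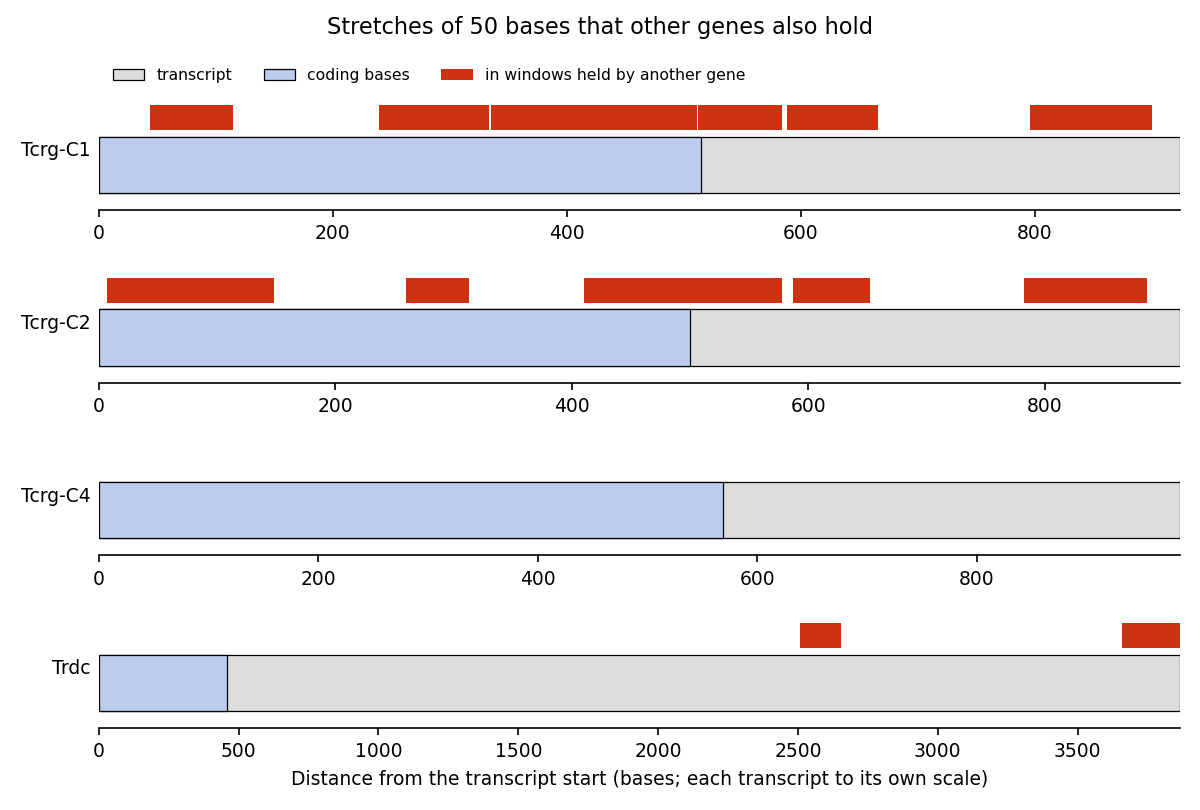
Transcripts of Tcrg-C1, Tcrg-C2, Tcrg-C4 and Trdc from their start (x axis, bases, each to its own scale), with coding bases in blue, the rest in grey, and red above the bases that lie in a 50-base window also present in another gene. Red runs over coding and non-coding bases of Tcrg-C1 and Tcrg-C2, is absent from Tcrg-C4, and touches Trdc after its coding part, from base 2509 onwards.

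Trdc (ENSMUSG00000104876.1, chr14:54142851-54148868, plus strand) encodes the delta constant region. Of the 3865 bases of its 1 annotated transcript, 458 are coding (11.9%), and its last exon of 3403 bases is untranslated. Shared windows numbered 255 of 3816 in Trdc (6.68%), held by 945 other genes, and all 255 started after the coding part. The posterior SD of Trdc was 0, 1.00 and 0.5 reads in libraries 1, 2 and 3. On the opposite strand, Trdc overlaps the delta variable gene Trdv5, with 1.00, 1.03 and 0 estimated counts in libraries 1, 2 and 3, and Gm43434, with 1.00, 0 and 0. The strand setting is not given in the sources used here, so reads of these genes and of Trdc may not be fully told apart.

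All 4 constant genes were detected at low levels, where detected means 1 TPM (a level per length of transcript) or more in all 3 libraries. That was true of 4 of the 6 genes, beside 22.5% of all 55536 genes. Tcrg-C1 had 20.4, 53.6 and 38.3 estimated counts in libraries 1, 2 and 3, which are levels of 2.57, 5.60 and 5.27 TPM. Its level was lowest in library 1, and libraries 2 and 3 were close to each other. Tcrg-C2 had 36.2, 47.5 and 13.7 estimated counts, or 4.63, 5.02 and 1.91 TPM. Here library 3 was lowest and libraries 1 and 2 were close, so the low library of Tcrg-C2 was not that of Tcrg-C1. Tcrg-C4 had 11, 17 and 15 estimated counts, or 1.30, 1.66 and 1.93 TPM, a narrow range. Trdc had 44, 43.0 and 56.0 estimated counts, or 1.27, 1.03 and 1.77 TPM, and was highest in library 3.

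Both transcription factor genes stood at or near 0. Sox13 (ENSMUSG00000070643.11, chr1:133382303-133424377, minus strand) had 3, 2 and 0 estimated counts in libraries 1, 2 and 3, or 0.190, 0.0600 and 0 TPM. In library 3 a count of 0 allows up to 3 counts, which is 0.183 TPM for this gene, so library 3 was not distinguishable from library 1 at this depth. Of its 5 annotated transcripts, Sox13-203 took 2.44 of the 3 counts in library 1 and both counts in library 2, and Sox13-202 took the other 0.560 in library 1. Its whole-number counts were 1, 0 and 0. Zbtb16 (ENSMUSG00000066687.5, chr9:48654297-48836222, minus strand) had 0 estimated counts in every library for both of its transcripts, and 0 whole-number counts. The limit that a count of 0 allows, 3 counts per library, was 0.0881, 0.0730 and 0.0961 TPM for Zbtb16 in libraries 1, 2 and 3. In bulk samples, fewer cells of a type and less RNA per cell cannot be told apart.

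**Figure D2:**
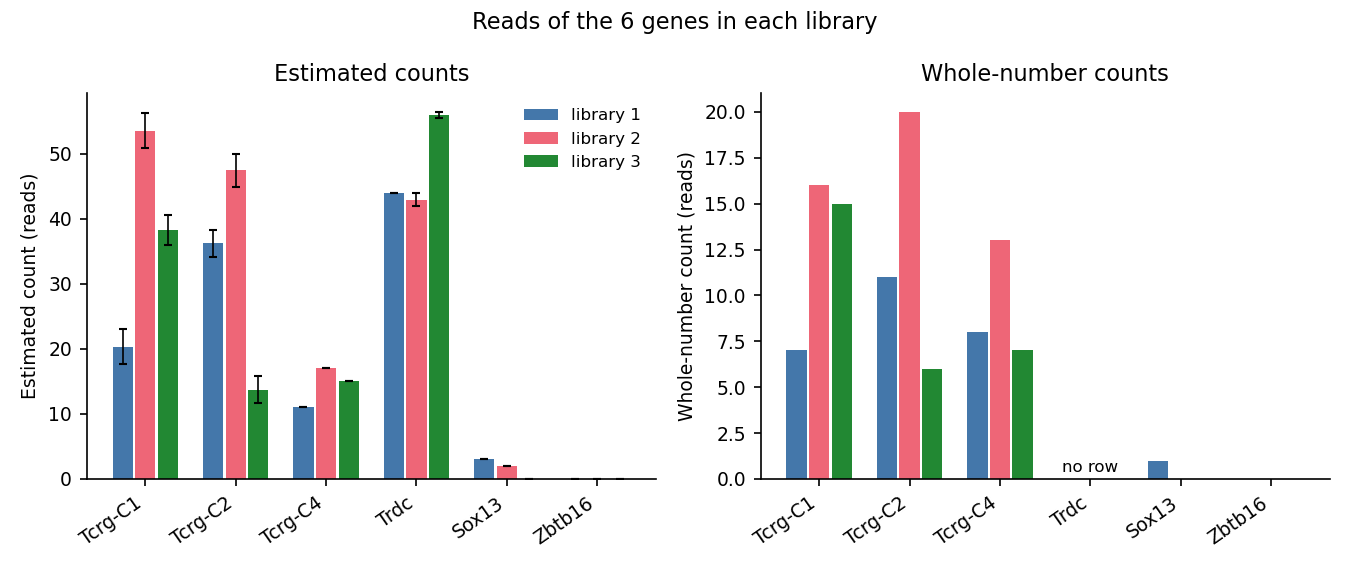
Estimated counts (left, error bars are the deposited posterior SD in reads) and whole-number counts (right) of the 6 genes in libraries 1, 2 and 3, on linear axes from 0. Tcrg-C1 is lowest in library 1 and Tcrg-C2 in library 3 in both panels, Zbtb16 is at 0 in all, and Trdc was not analysed in the whole-number counts.

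By mean TPM the order was Tcrg-C1 at 4.48 ± 1.66 (SD over the 3 libraries, as for all levels that follow), Tcrg-C2 at 3.85 ± 1.69, Tcrg-C4 at 1.63 ± 0.316, Trdc at 1.36 ± 0.378, Sox13 at 0.0833 ± 0.0971 and Zbtb16 at 0. For scale, the median over the 33240 genes above 0 in any library was 0.517 TPM, and 9852 genes had a higher mean TPM than Tcrg-C1 and 13210 a higher one than Trdc. Neighbours in this order were set against each other inside each library on the log2(TPM + 0.1) scale, which understates differences of low genes. Tcrg-C1 minus Tcrg-C2 was 0.25 ± 1.12 and above 0 in 2 of 3 libraries, so these neighbours did not differ beyond their spread. It was -0.34 without library 3 and 0.79 without library 1, so which of the pair leads depends on 1 library. Tcrg-C2 minus Tcrg-C4 was 1.09 ± 0.97, also above 0 in 2 of 3 libraries. Tcrg-C4 minus Trdc was 0.26 ± 0.33, above 0 in 3 of 3 libraries but smaller than its spread. Trdc minus Sox13 was 3.10 ± 1.02 and above 0 in 3 of 3. An exact sign-flip permutation test of 3 libraries cannot go below p = 0.25, so none was run on these differences. The order depends on the length correction: as CPM, which takes no account of length, Trdc led at 4.0 ± 1.13, against 3.03 ± 1.14 for Tcrg-C1, 2.57 ± 1.12 for Tcrg-C2 and 1.18 ± 0.239 for Tcrg-C4, because its transcript is the longest of these 4.

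The constant genes of the alpha-beta receptor were higher by orders of magnitude. Against Trdc with its mean of 1.36 TPM, the alpha constant gene Trac stood at 2910 ± 86.3 TPM, 2259, 2769 and 1700 times the level of Trdc in libraries 1, 2 and 3. This ratio rests on the long untranslated part of Trdc: in counts, with no length correction, Trac was 455, 565 and 346 times Trdc, and the log2 difference in CPM was -8.76. As log2(TPM + 0.1), Trdc minus Trac was -11.00 ± 0.33, Tcrg-C1 minus Trac -9.39 ± 0.59, Tcrg-C2 minus Trac -9.64 ± 0.79 and Tcrg-C4 minus Trac -10.73 ± 0.24, each lower in 3 of 3 libraries. Summed over the 4 gamma and delta constant genes the level was 9.77, 13.3 and 10.9 TPM in libraries 1, 2 and 3, against 8149, 7800 and 8613 TPM for Trac, Trbc1 and Trbc2. The gamma and delta genes thus took 0.120%, 0.170% and 0.126% of the summed constant gene TPM. Taken by chain, Trdc was 0.0464% ± 0.0115 of the sum of Trdc and Trac, and the 3 gamma genes were 0.190% ± 0.0497 of their sum with Trbc1 and Trbc2. For Zbtb16 the limit of 3 counts put its level at least 32554-, 39061- and 31315-fold lower than that of Trac in libraries 1, 2 and 3.

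Differences between the libraries were tested for 13970 genes, those whose estimated counts averaged at least 10, by a Poisson chi-square test with Benjamini-Hochberg adjustment over all of them. This test reads counting noise only and describes these libraries. Of the 6 genes, 4 passed the count minimum and 2 of these, Tcrg-C1 and Tcrg-C2, were called at an adjusted p under 0.05, beside 45.7% of all genes tested, a share close to 2 of 4. Tcrg-C1 was 2.30-fold higher in library 2 than in library 1 after scaling (Poisson chi-square, adjusted p = 0.0121). Tcrg-C2 was 2.67-fold higher in library 2 than in library 3 (adjusted p = 0.00934). Trdc was 1.64-fold higher in library 3 than in library 2 and did not pass (adjusted p = 0.0848), but it did with total-count scaling (adjusted p = 0.0459) and without library 1 (adjusted p = 0.0402). Tcrg-C4 spanned 1.46-fold (adjusted p = 0.694). Sox13 and Zbtb16 were below the count minimum and were not tested.

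Each of the 2 calls rested on 1 library. Without library 1, Tcrg-C1 was no longer called (adjusted p = 0.715), and without library 3, Tcrg-C2 was not (adjusted p = 0.781). The whole-number counts showed the same low libraries with fewer reads: Tcrg-C1 had 7, 16 and 15 in libraries 1, 2 and 3, Tcrg-C2 had 11, 20 and 6, and Tcrg-C4 had 8, 13 and 7. In these counts 2 of the members passed the count minimum and 0 of them were called (adjusted p = 0.338 for Tcrg-C1 and 0.191 for Tcrg-C2 in the same test), beside 21.5% of the genes tested there. Unadjusted p-values in the estimated counts were 0.00420 for Tcrg-C1 and 0.00311 for Tcrg-C2.

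The balance between the near-identical pair changed across the libraries. Tcrg-C1 took 20 of 56 reads of the pair in library 1, 54 of 101 in library 2 and 38 of 52 in library 3, after rounding. These are shares of 35.7% (95% Wilson interval 24.5% to 48.8%), 53.5% (43.8% to 62.9%) and 73.1% (59.8% to 83.2%). The intervals of libraries 1 and 3 do not overlap, and they cover counting error only, not the assignment of reads. In the whole-number counts the shares were 38.9% (20.3% to 61.4%), 44.4% (29.5% to 60.4%) and 71.4% (50.04% to 86.2%), in the same order, and there the intervals of libraries 1 and 3 overlap. Summed, the pair had 57, 101 and 52 reads, highest in library 2 and 1.55-fold above library 3 (adjusted p = 0.0216 with the pair taken as 1 gene in the same test). In the sum, libraries 1 and 3 were close to each other and library 2 stood above both.

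Genes with a pattern like that of the 2 called members were found by rank among 9070 genes that averaged at least 100 counts, by the Euclidean distance of centred log2(CPM + 0.5) over the 3 libraries. Nearest to Tcrg-C1 were Slc24a5 at a distance of 0.0933, with 5.57, 10.5 and 10.6 TPM, Mtmr7 at 0.105 and 0610009E02Rik at 0.109. Nearest to Tcrg-C2 were Tbx21 at 0.0533, which encodes the T-bet factor of type 1 immunity and stood at 15.4, 16.6 and 8.10 TPM, 2610318N02Rik at 0.0696 and Gm12355 at 0.0722. Within a distance of 0.1 lay 1 gene for Tcrg-C1 and 3 for Tcrg-C2, and with 3 libraries this likeness is a description.

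The V genes upstream of each gamma constant gene gave few reads. In the Tcrg-C1 cluster, the 4 V genes Tcrg-V7, Tcrg-V4, Tcrg-V6 and Tcrg-V5 held 4 estimated counts in all over the 3 libraries, beside 112 of Tcrg-C1, or 3.57 V counts per 100 C counts. Tcrg-V7 and Tcrg-V5, the V genes of intestinal and skin gamma-delta T cells, were at 0 in every library. Tcrg-V6, known from IL-17-making gamma-delta T cells, had 2, 1 and 0 counts, and Tcrg-V4, another V gene of such cells, had 0, 1 and 0. The C2 and C4 clusters held more V counts per 100 C counts than this. In the C2 cluster, Trgv2 had 7, 9.66 and 2 counts in libraries 1, 2 and 3. Tcrg-C2 had 36.2, 47.5 and 13.7, and the ratio was 19.2 V counts per 100 C counts. Trgv2 and Tcrg-C2 were both lowest in library 3. Its joining segment Trgj2 had 1, 2 and 0 counts, while Trgj1, Trgj3 and Trgj4 were at 0. With effective lengths of 11 to 12 bases these J genes can take few reads: the alpha J genes took 1.43, 1.57 and 1.45 counts per 100 of Trac, so zeros beside the counts of the gamma constant genes are not informative.

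In the C4 cluster Tcrg-V1 had 5, 1.34 and 0 counts, lowest in library 3, whereas Tcrg-C4 itself was level across the libraries. There were 14.7 V counts per 100 C counts. By mean TPM the V level was 42.5% of the C level in the C4 cluster, 37.2% in C2 and 8.93% in C1. These ratios rest on 6.34 V counts in C4, 18.7 in C2 and 4 in C1 over the 3 libraries. In the C3 cluster, Tcrg-V3 had 0, 0 and 2 counts and Tcrg-C3 had 0.390, 0 and 0. Summed per length over the locus, the 7 gamma V genes reached 2.79 ± 1.40 TPM, beside 9.99 ± 2.00 for the 4 gamma C genes. That is a V level of 48.1%, 23.6% and 14.7% of the C level in libraries 1, 2 and 3. The same ratio in the alpha-beta receptor was far steadier, at 54.6%, 56.4% and 56.0% for alpha V genes against Trac and 53.6%, 54.9% and 50.5% for beta V genes against the beta C genes. The gamma V sums rest on 14, 13 and 4 counts.

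**Figure D3:**
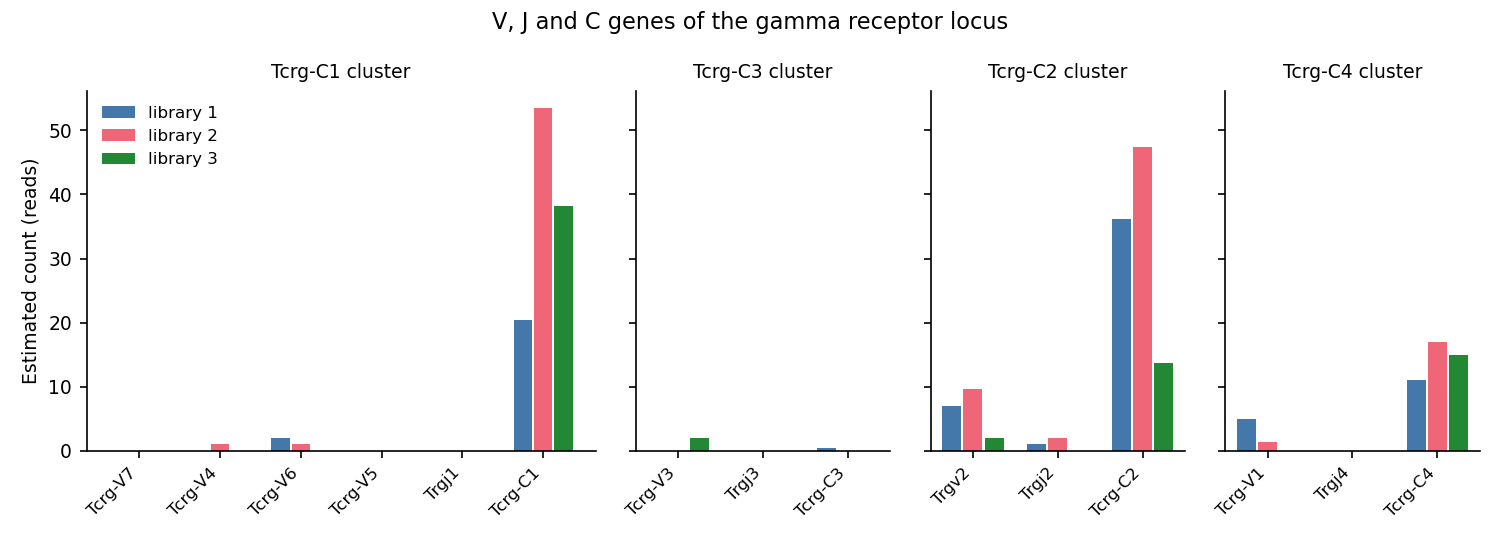
Estimated counts (y axis, linear from 0) of the V, J and C genes of the 4 gamma clusters in libraries 1, 2 and 3. Tcrg-C1 rises above V genes that are at or near 0. Trgv2 has reads beside Tcrg-C2, both lowest in library 3, and Tcrg-V1 has fewer beside Tcrg-C4.

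At the delta locus the V genes together were higher per length than Trdc in every library, but higher in counts in library 3 only. The 6 genes named Trdv held 33, 14.0 and 78 counts in libraries 1, 2 and 3, against 44, 43.0 and 56.0 of Trdc, with 1 of the 6, Trdv3, at 0 in all. Per length the V sum was 932%, 415% and 1685% of the level of Trdc, a ratio that rests on the long untranslated part of Trdc. Trdv1 had 20, 10 and 36 counts (adjusted p = 8.6e-05 in the Poisson chi-square test) and Trdv2-2 had 12, 0 and 31.2 (adjusted p = 9.9e-09). Both were highest in library 3 and lowest in library 2, as Trdc was, whose own difference did not pass. Trdv2-1 had 0, 2 and 6.85 counts. Fractional counts of Trdv2-2 and Trdv2-1 in library 3 mean that some reads there were split between genes. The sum of Trdv2-1 and Trdv2-2 was not tested, so the call of Trdv2-2 may depend on that split. Trdv4 had 0, 1 and 4 counts. Of the D and J genes of the delta locus, Trdj1 had 1 count in library 3 and the other 3 were at 0. Their effective lengths are 0 bases for Trdd1 and Trdd2, which could receive no reads, 2 for Trdj1 and 10 for Trdj2, so these zeros say nothing of the delta locus.

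A further 10 V genes can serve both the alpha and the delta chain, and their names carry both. They held 787, 518 and 499 counts in libraries 1, 2 and 3, and 9 of them reached a mean count of 5. Trav4-4-dv10 had 507, 240 and 130 counts and was highest in library 1, Trav16d-dv11 had 62.6, 17.3 and 8.15, and Trav14d-3-dv8 had 31.6, 54.6 and 245, highest in library 3. Trav6-7-dv9 had 58.6, 101 and 47.2 counts and Trav13-4-dv7 had 26.3, 42.6 and 6.45. Trav15d-1-dv6d-1 had 17.9, 4 and 23.7 counts, Trav15-1-dv6-1 had 22.8, 1 and 3.13, and Trav15d-2-dv6d-2 had 9.83, 5.86 and 1.94. Trav21-dv12, with 45, 51 and 32 counts, was the steadiest of the 9. Which constant gene these V reads were joined to was not measured here. Several of these V genes have near-identical copies in the alpha locus, so the split of reads between them is uncertain.

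Genes of the wider gamma-delta programme fell into abundant and near-absent ones. Of 20 list genes, 13 were detected and 5 were under 1 TPM in all libraries, and the list median was 4.41 TPM. Cd27, a costimulatory receptor, stood at 185 ± 17.9 TPM, Maf, a factor of IL-17-making and IL-10-making cells, at 111 ± 10.02, the E protein inhibitor Id3 at 103 ± 3.64 and the orphan receptor gene Rora at 82.0 ± 5.92. These are genes that alpha-beta T cells also express. The genes more particular to gamma-delta T cells were low: Sox4, of the SoxC group, at 0.0967 ± 0.0208 TPM, the scavenger receptor genes Cd163l1 at 0.170 ± 0.236 and 5830411N06Rik at 0.267 ± 0.256, Il17a at 0.323 ± 0.492 and Blk, a kinase shared with B cells, at 1.04 ± 0.417. Il17a had 9, 1 and 0 counts and Cd163l1 had 2, 11 and 0 in libraries 1, 2 and 3, so Il17a was highest in library 1 and Cd163l1 in library 2. Of 14 list genes tested between libraries, 9 were called, beside 45.7% of all genes tested, highest in library 1 for 1 gene, in library 2 for 3 and in library 3 for 5.

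Sox13 shared its near-absence with its relatives. In the list of SoxD and SoxC factors and the TCF/LEF factors that SOX13 binds, 2 of 10 genes were detected, Tcf7 at 119 ± 17.9 TPM and Lef1 at 80.2 ± 1.80, and the other 8 were under 1 TPM in every library. The SoxD genes Sox5 and Sox6 were at 0.0767 ± 0.133 and 0.207 ± 0.201 TPM, and the SoxC genes Sox11 and Sox12 at 0.0233 ± 0.0208 and 0.05 ± 0.0557. Tcf7l1 and Tcf7l2 stood at 0.173 ± 0.0961 and 0.440 ± 0.144 TPM. The list median was 0.135 TPM. Of 3 genes tested, 2 were called, beside 45.7% of all genes, Tcf7 highest in library 3 and Lef1 highest in library 2.

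Zbtb16 was at 0 while most other genes listed for the innate-like programme were detected. Of 20 list genes, 18 were detected, beside 22.5% of all genes, and Zbtb16 was the 1 gene of the list at 0. Whether the cells ran this programme was not tested. Sh2d1a, the adaptor SAP, stood at 293 ± 29.1 TPM, its receptor gene Slamf6 at 254 ± 9.74, Gata3 at 136 ± 17.0 and Il18r1 at 133 ± 10.5. Klrb1c, the NK1.1 gene, was low at 0.830 ± 0.743 TPM. The list median was 54.6 TPM. Of 19 genes tested, 15 were called, beside 45.7% of all genes, highest in library 1 for 1, in library 2 for 8 and in library 3 for 6. Among the EGR, ID and E protein genes that lie upstream of both programmes, 9 of 10 were detected, led by Id2 at 1178 ± 63.3 TPM, then Id3, Egr2 and Tcf12, the last at 19.5 ± 3.92, with Id1 low at 0.243 ± 0.0306. Of 9 tested, 6 were called, beside 45.7% of all genes, 3 highest in library 2 and 3 in library 3.

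Among the BTB zinc finger genes of lymphocytes, 8 of 10 were detected, Zbtb20 at 29.2 ± 8.21 TPM, Zbtb32 at 21.7 ± 4.27, Zbtb1 at 21.7 ± 1.27 and Zbtb7b, the ThPOK gene of the CD4 lineage, at 13.3 ± 1.91. Hic1 was under 1 TPM, at 0.300 ± 0.105, and Zbtb16 was at 0. Of 9 tested, 4 were called, close to the 45.7% of all genes, 2 highest in library 1 and 2 in library 3. The genes of the corepressors, deacetylases and ubiquitin ligase scaffold that PLZF binds were all detected, 6 of 6, with Hdac1 at 198 ± 13.8 TPM, Ncor1 at 137 ± 5.05, Hdac3 at 41.0 ± 9.37 and Cul3 at 36.8 ± 4.58. Of these 6, 4 were called, beside 45.7% of all genes, 2 highest in library 1, 1 in library 2 and 1 in library 3.

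**Figure D4:**
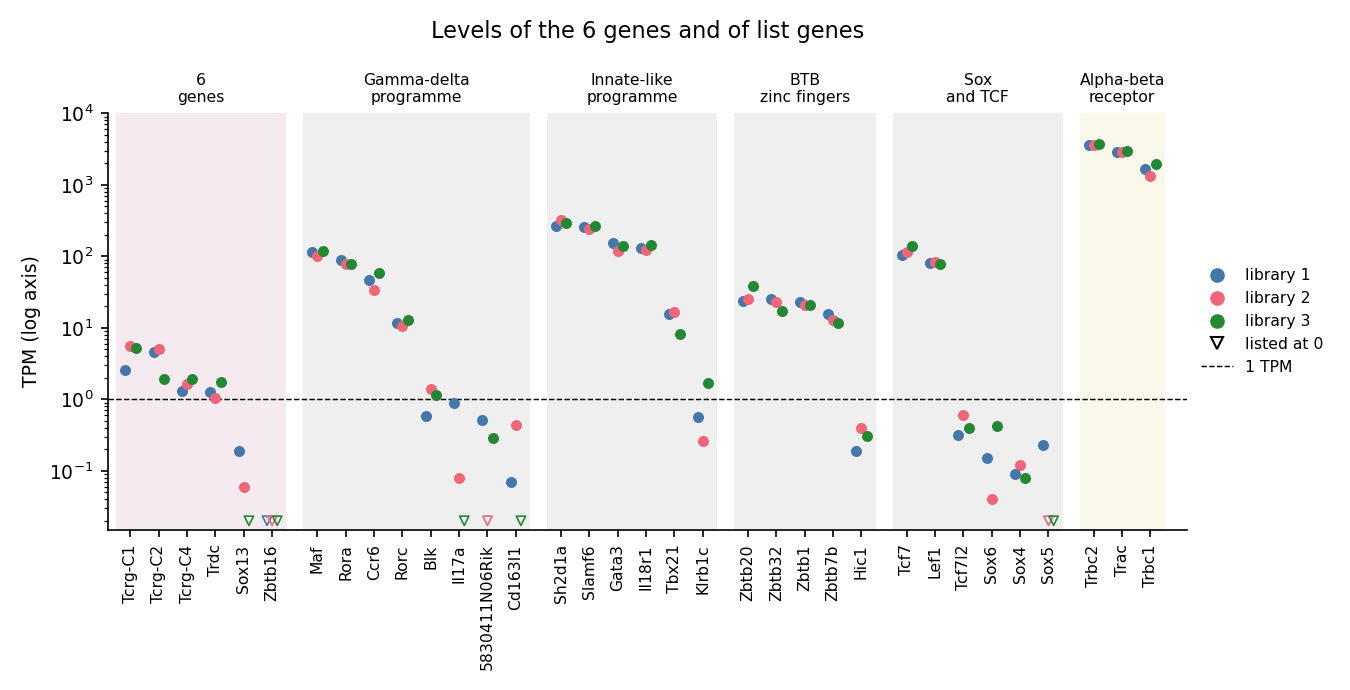
TPM on a log axis of the 6 genes (left) beside genes of the gamma-delta programme, the innate-like programme, the BTB zinc finger and Sox and TCF lists, and the alpha-beta constant genes, with 1 point per library. The dashed line is 1 TPM and open triangles mark a gene listed at 0. The 4 constant genes sit between 1.03 and 5.60 TPM, Sox13 and Zbtb16 at 0.190 or below, and Trac, Trbc1 and Trbc2 between 1314 and 3676.

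Of the 5 alpha segments that form the receptors of NKT and MAIT cells, 3 were detected, and the list median was 15.8 TPM. The NKT segments Trav11 and Trav11d had 5.60, 0 and 0 and 0, 4 and 19.4 counts, and Traj18 had 10, 26 and 21, which is 3.48%, 6.82% and 7.47% of the counts on all 60 alpha J genes. The MAIT segments Trav1 and Traj33 had 42, 46 and 51 and 4, 11 and 2 counts. The J segments are short, with effective lengths of 17 bases for Traj18 and 8 for Traj33, so their counts are low for their level. In library 3, 2 counts put Traj33 at 30.1 TPM, so very few reads make such a segment detected at 1 TPM. Of the 5 segments, 2 were tested and 0 were called (Poisson chi-square, adjusted p = 0.111 for Traj18 and 0.311 for Trav1). Each segment can also join other partners. In the list of alpha-beta constant genes and CD3 chains, 7 of 7 genes were detected, beside 22.5% of all genes, and 7 of 7 were called, beside 45.7% of all genes tested, 4 highest in library 2 and 3 in library 3. At counts as high as those of this list the Poisson test calls small differences, as for Cd3e at 1119, 1109 and 1128 TPM. Not all differences in the list were that small: Trbc1 stood at 1641, 1314 and 1929 TPM and Cd247 at 224, 297 and 234.

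Of the 9 Treg markers, 9 were detected, with Foxp3 at 17.96, 14.3 and 16.0 TPM. Of 9 tested, 8 were called, beside 45.7% of all genes tested, 5 highest in library 1 and 3 in library 3. Foxp3 was the 1 not called (Poisson chi-square, adjusted p = 0.117). Summed Treg marker levels were 2513, 2043 and 2359 TPM in libraries 1, 2 and 3. Markers of other cells also differed between the libraries. Summed NK marker levels were 1187, 2100 and 866 TPM in libraries 1, 2 and 3, with 5 of 12 genes detected. Nkg7 carried most of that sum, and without it the list summed to 44.9, 93.2 and 47.0 TPM. Of 8 NK markers tested, 8 were called, beside 45.7% of all genes tested, and 7 of the 8 were highest in library 2. Over all genes, 2165 of the 6388 called were highest in library 2. The defining NK gene Ncr1 had 6, 4 and 2 counts. CD8 T cell markers, 4 of 6 detected, summed to 30.6, 261 and 94.1 TPM, with Gzmk alone at 5.66, 202 and 53.7. Of 6 CD8 markers tested, 6 were called, beside 45.7% of all genes tested, 4 highest in library 2 and 2 in library 3. The 2 highest in library 3 were Cd8a, at 0.12, 0.97 and 2.85 TPM, and Cd8b1, at 5.76, 11.45 and 12.36. Macrophage markers, 3 of 8 detected, summed to 18.5, 72.7 and 37.3 TPM. Erythroid markers, 3 of 6, summed to 4.83, 51.2 and 286 TPM, and were highest in library 3. B cell markers, 5 of 10, summed to 419, 412 and 502 TPM, plasma cell markers, 2 of 5, to 85.8, 366 and 463, innate lymphoid markers, 6 of 9, to 178, 147 and 171, and NKT markers, 2 of 5 with Zbtb16 at 0, to 104, 200 and 195. Without the short segment Traj18 the NKT list summed to 39.3, 60.0 and 45.9 TPM, most of it Cd160. Thymocyte markers, 2 of 6, summed to 109, 135 and 144 TPM with Rag1 and Rag2 at 0. The gamma-delta marker list, which holds 5 of the 6 genes, had 4 of 11 detected and summed to 11.3, 16.0 and 13.3 TPM, with Tcrg-V5 at 0. The part of these cells in the differences of Tcrg-C1, Tcrg-C2 and Trdc between libraries was not tested.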

How the data were processed

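Messenger RNA of 1 group of Tregs was measured in 3 libraries, technical replicates of 1 biological replicate. The authors deposited estimated counts and TPM per gene and per transcript on mm10 and GENCODE M21, in RSEM's column layout, with reads that map to several genes shared by a model, per the file headers. The posterior SD of a count is a signal in reads of how uncertain that sharing was, and a transcript's part of its gene is a percent, both as deposited. A further deposited table gives whole-number counts against GENCODE M4. It holds 22457 genes, and abundant genes keep few reads there. The sources used here give no aligner, version, read length or strand setting. Of 81881 entries in the gene tables, 55536 were genes and the others entered no test.

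Summed over genes, depth was 11829501, 14136139 and 10667765 estimated counts in libraries 1, 2 and 3, where 3 counts are 0.254, 0.212 and 0.281 CPM, and whole-number totals were 2988262, 3386154 and 2734873. Intervals and such floors cover counting error only, since PCR copies are not independent molecules.

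Estimated counts were rounded. The quasi-likelihood test of edgeR needs groups to compare and there was 1, so libraries were compared by a Poisson chi-square test with TMM-adjusted library sizes (edgeR 4.0.16, R 4.3.3; DESeq2 1.42.0 size factors as an alternative), a mean count of at least 10 and a Benjamini-Hochberg adjusted p of 0.05. The test was also run on simulated counts that held counting noise and added changes only. That run cannot say how the test behaves with the other noise of real libraries. TMM factors were 0.995, 0.976 and 1.03. Genes, gene lists and the rule for named genes (up to 4 genes a list by mean TPM, those it is known for, genes of the gamma and delta loci with a mean count of 5, and the 3 nearest patterns) were chosen with earlier results of these data known. The Poisson test of Tcrg-C1 and Tcrg-C2 summed and the 50-base windows were added after seeing the data. Python 3.11.15 with scipy 1.17.1 and pandas 2.3.3 was used.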

Additional observations from a re-analysis of the deposited data

How the results depend on the processing

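The levels and orders above were recomputed under the other scalings, filters, count tables and estimates, and 120 of the 147 recomputed values kept their call or stayed within 1 SD of the libraries. The adjusted p for a difference between libraries ranged over the libraries left out in turn from 0.00806 to 0.715 for Tcrg-C1, from 0.00420 to 0.781 for Tcrg-C2, from 0.0402 to 0.590 for Trdc and from 0.506 to 0.849 for Tcrg-C4. With whole-number counts it was 0.338 for Tcrg-C1 and 0.191 for Tcrg-C2, and with total-count scaling 0.0459 for Trdc. The 6388 genes called over all genes became 2157 with whole-number counts, where 10013 genes were tested, and 2978 to 4765 with a library left out. As CPM of estimated counts, Trdc stood at 4.0, Tcrg-C4 at 1.18, the summed gamma V genes at 0.826 and the summed gamma C genes at 6.79, and as CPM of whole-number counts Tcrg-C4 stood at 3.03. The posterior mean TPM gave 0.467 for Sox13, 0.0567 for Zbtb16 and 5.27 for the gamma V sum. On the log2 scale, Tcrg-C4 minus Trdc was -1.66 with CPM of estimated counts, turned round by the length of Trdc. Trdc minus Sox13 was 1.16 with the posterior mean, 4.29 with CPM of estimated counts and 1.11 with a pseudocount of 1. Trdc minus Trac was -8.76 with CPM of estimated counts and -10.28 with a pseudocount of 1, and Tcrg-C4 minus Trac -10.43 and -10.12. With whole-number CPM, Tcrg-C1, Tcrg-C2 and Tcrg-C4 minus Trac were -6.47, -6.58 and -6.86, since Trac keeps 1052, 1109 and 1083 counts there. The cause of the other changes was not tested. With a mean count of at least 50 none of the 6 genes entered the test, and a pseudocount does not enter mean TPM. No paired analysis was possible because there was 1 group. Depth limits Sox13 and Zbtb16 to the bounds given, and the libraries show no spread between mice.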
